A study of Mus musculus with 12 samples.

Results

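The miRPlus probes of the Exiqon array were 429 capture oligonucleotides whose names contain miRPlus and no mouse miRNA, out of 1735 probes named for a miRNA or a miRNA candidate. Each was printed as 4 spots, 1716 spots in all among 8720 on each array. They are named hsa-miRPlus followed by a letter and a number, and are written here without the prefix hsa-. By that letter, 210 belonged to series E, 187 to F, 16 to C, 12 to A, 3 to D and 1 to B.

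The arrays measured small RNA in the median liver lobe of male B6C3F1 mice. They were 27 to 30 days old by the labels, and adult by the study's design text. The 6 BaP arrays held liver RNA of mice given benzo[a]pyrene at 150 mg/kg daily for 3 days, and the 6 vehicle arrays that of mice given corn oil on the same schedule. All livers were collected 4 h after the last dose, and livers taken at 24 h were not analysed here. Liver RNA carried the red dye Hy5, and a purchased pool of RNA from 10 mouse tissues carried the green dye Hy3 on every array. No array had the dyes exchanged, so each liver over reference ratio also holds the dye bias of its probe. The labels give 6 mice per group but not which mouse each array came from, and the spread behind each p-value is that between arrays.

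MicroRNAs are short RNAs that guide Argonaute proteins to messenger RNAs, mainly by pairing through the seed near their 5′ end. Many were first proposed from cloning or sequencing, and some candidates were later dropped as fragments of other RNAs. The miRPlus set was the array maker's own collection of human candidate miRNAs that were not in the public registry when the array was designed. Its capture probes contain locked nucleic acids, which raise the stability of the duplex. A human probe can bind mouse RNA where the sequence is conserved, and it can also bind related or unrelated RNA, so signal on a miRPlus probe is not by itself evidence of a mouse miRNA. Benzo[a]pyrene is a polycyclic hydrocarbon that activates the aryl hydrocarbon receptor and is converted in liver to metabolites that bind DNA.

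The sequences of the 429 probes were not used here, so no seed or genomic position is given for them. On 4 further probes a miRPlus name stands beside that of a mouse miRNA, and they were kept out of the set by its naming rule. The mouse miRNAs printed here share their names with 2 of these 4 probes. Both are RefSeq sequences on the mouse build GRCm38.p6, matched to the array names as the 5p arm, with the seed (bases 2 to 8) in capitals.
mmu-miR-674-5p: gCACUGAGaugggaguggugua
mmu-miR-872-5p: aAGGUUACuuguuaguucagg
The first lies at chr2:117185151-117185172 on the plus strand, and the second at chr4:94665167-94665187 on the plus strand. The probe that joins miRPlus-D1100 to mmu-miR-674 had net liver signals of 14.4, 22.9 and 32.0 (lowest, median and highest of 12 arrays), and was above background on 10 arrays. The probe that joins miRPlus-D1090 to mmu-miR-872 had a median net liver signal of 7.67 and was above background on 0 of 12 arrays. Both were therefore near or under the detection limit in liver. The other 2 such probes, with the names miRPlus-C1049 and miRPlus-D1120, were above background in liver on 1 and 2 arrays.

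The defining hepatocyte miRNAs were present in these arrays. The mouse miR-122 probe had a log2 liver over reference ratio of 3.85 ± 0.16 on BaP arrays and 3.72 ± 0.15 on vehicle arrays (SD, n = 6 each), and miR-192 and miR-194 were also higher in liver. Of muscle, miR-1 and miR-133a were above background in liver on 0 of 12 arrays. The brain miRNAs miR-124 and miR-9 were above it on 2 and 3 arrays. The leukocyte miR-142-3p and the erythroid miR-451 passed the liver threshold on all 12, with lower signal there than in the pool. By scan time the arrays fell on 4 days, and each day held BaP and vehicle arrays. Vehicle 5 and BaP 2 stood apart from the others. Over the log2 ratios of the 125 miRPlus probes detected in liver, vehicle 5 correlated with the other arrays at a mean r of 0.771 and BaP 2 at 0.811, while the remaining 10 arrays had means between 0.921 and 0.945. These correlations are across probes of shared arrays and carry no test.

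The first question was how many human candidate probes gave any signal in mouse liver. Net signal was the mean of the 4 spots after subtraction of each spot's local background. A probe was above background on an array where this was more than 2.6 scaled median absolute deviations over the median of the 28 spots of negative control probes. It was called detected where that held on at least 3 arrays of a group.

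A minority of the candidates was lit in either RNA. In liver, 79 of 429 (18.4%) were above background on all 12 arrays, beside 20% of all 1735 named probes, and 171 (39.9%) were above it on no array. In the reference pool, 78 (18.2%) were above background on all 12 arrays, beside 25.4% of all named probes, and 228 (53.1%) on none. By the looser rule 125 miRPlus probes were detected in liver (29.1%, beside 29.6% of all named probes) and 119 in the reference (27.7%, beside 38.7%). The liver shares lay near the background, and the reference shares below it. Without BaP 2, 115 were detected in liver and 117 in the reference, and without vehicle 5, 124 and 118. The drop in liver was not particular to BaP 2, with 114 detected without BaP 1 and 115 without BaP 4.

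The other probe classes bracket these numbers. On all 12 arrays, 26.9% of the 595 mouse miRNA probes, 16.4% of the 592 probes for other mammals and 9.24% of the 119 viral probes were above background in liver. In the reference, the shares were 41.3%, 17.9% and 9.24%. The miRPlus share was thus above that of the viral probes and below that of the mouse probes in both channels. Of the 119 viral probes, 11 were above background in liver on every array, although the labels name no infection.

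Most detected candidates were seen in both RNAs. Of the miRPlus probes, 108 were detected in liver and reference, 17 in liver alone, 11 in the reference alone and 293 in neither. The shared probes were 86.4% of those detected in liver and 90.8% of those detected in the reference. Only miRPlus-F1028, miRPlus-F1039 and miRPlus-F1104 passed the threshold on every array in liver and on none in the reference.

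The large series E and F had like shares of lit probes. In series E, 37 probes (17.6%) were lit in liver on all 12 arrays, and in series F 33 (17.6%). Series A had 4 of 12, C 2 of 16, D 2 of 3 and B its single probe, numbers too small to rank.

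The number lit differed more within the groups than between them. The BaP arrays had 95, 120.5 and 183 miRPlus probes above background in liver (lowest, median and highest), and the vehicle arrays 107, 113.5 and 171. The groups overlapped across nearly their whole range. The threshold in liver was 1.92 and 2.89 on the 2 arrays of the first scan day and between 16.2 and 28.8 on the other arrays. Those 2 arrays, BaP 1 with 150 and vehicle 1 with 171 probes, were among the 3 with the most probes above background. The third was BaP 2 with 183, which fell to 110 when at least 3 of 4 spots had to pass. Of the 28 negative control spots, 6 on vehicle 1, 5 on BaP 1 and 6 on BaP 2 also passed the liver threshold. On the other arrays 0 or 1 did, so part of the counts on these 3 arrays can be background. In the reference, between 89 and 138 miRPlus probes were above background per array, against thresholds of 33.3 to 89.6. The highest count was that of BaP 3, where 4 negative control spots also passed the reference threshold. On BaP 2, with 121 probes, 5 did, and 0 or 1 did on each other array.

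Detection on every array rested on most of the spots, while detection on 1 array seldom did. The 429 probes gave 5148 values over 12 arrays in liver, of which 1515 (29.4%) were above background. Of these 1515, 1334 had 3 or 4 spots above the threshold, 93 had 2 and 88 had 1. For the 79 probes above background everywhere, 944 of 948 values had at least 3 spots above it, and their spots within an array differed with a median coefficient of variation of 9.69% (interquartile range 6.08 to 15.4%). Of the 87 probes above background on exactly 1 array, 75 had fewer than 3 spots behind that call.

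Single bright spots were the extreme case. A spot over 1000 and over 10 times the median of its 3 partners occurred in 18 of the 5148 values, each on a different probe, and the scanner software had marked all 18 as outliers. The 5 miRPlus probes whose liver signal on 1 array stood farthest above the other arrays were all of this kind. miRPlus-E1072 had net liver signals of 7.52, 16.2 and 11820.5 on BaP arrays and 14.8, 15.5 and 21.1 on vehicle arrays (lowest, median and highest). Its high value came from BaP 4, where 1 spot read 47174 and the other 3 had a median of 36.5. miRPlus-F1050 on BaP 3 and miRPlus-F1196, miRPlus-F1094 and miRPlus-F1011 on vehicle 4 had spots of 32148, 37788, 35067 and 34078, with the other 3 spots at a median between -2.37 and 4.62. Such a spot can lift the mean of 4 spots over the threshold where the other 3 are dark, and these spots were left out of the log2 ratios. For miRPlus-E1072 on BaP 4 the median of the other 3 was itself above the liver threshold of 20.4.

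The brightest candidates were few and dominated the total. The median net liver signal over the 12 arrays exceeded 100 for 44 of the 429 probes, 1000 for 16 and 10000 for 5. In the reference, 59, 18 and 4 did. The 10 brightest in liver held 87.4% of the summed median liver signal of all 429, and the brightest 26.1%. Brightness depends on the affinity of each probe and on the RNA it can bind, so it does not rank abundance.

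The brightest of all was miRPlus-E1218. It read 35606, 52411 and 63102 on BaP arrays, against 22813, 54813 and 62871 on vehicle arrays (lowest, median and highest, as for the probes that follow). In the reference it read 15589.9, 31415 and 44213 over the 12 arrays. It had 21 saturated liver spots, spread over 6 arrays, so its liver signal there is a lower limit.

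miRPlus-E1078 read 33622, 41338 and 44635 on BaP arrays, against 30767, 41879.7 and 52025 on vehicle arrays and 26113, 30038 and 42544 in the reference. miRPlus-E1103 read 12497, 18525 and 25021 on BaP arrays, against 15087, 21388 and 27659.9 on vehicle arrays and 13052, 17849 and 22322 in the reference. Their normalized ratios lay near 0. The log2 ratios were 0.06 ± 0.16 on BaP arrays and -0.01 ± 0.19 on vehicle arrays for miRPlus-E1078, and -0.05 ± 0.13 on BaP arrays and 0.02 ± 0.14 on vehicle arrays for miRPlus-E1103. The sign of these 2 ratios turned with the scaling, over -0.27 to 0.52 and -0.34 to 0.44 on vehicle arrays.

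The consecutively numbered miRPlus-E1252 and miRPlus-E1253 followed in brightness. miRPlus-E1252 read 9854, 13632 and 17174 on BaP arrays, against 10488, 13850.2 and 19634 on vehicle arrays and 6675, 9489 and 12758 in the reference. miRPlus-E1253 read 8325, 11865 and 14906 on BaP arrays, against 9386, 12942 and 17869.8 on vehicle arrays and 4018, 5663 and 7701 in the reference. The liver ranges of BaP and vehicle arrays overlapped for each probe. The log2 ratio of miRPlus-E1252 was 0.54 ± 0.22 on BaP arrays and 0.53 ± 0.14 on vehicle arrays, and that of miRPlus-E1253 1.11 ± 0.12 on BaP arrays and 1.16 ± 0.14 on vehicle arrays.

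The remaining 5 of the 10 brightest had log2 liver over reference ratios above 0 on each array. miRPlus-F1003 read 4959, 8321 and 20944 on BaP arrays, against 5192, 11793 and 21311 on vehicle arrays and 1574, 2051 and 3079.6 in the reference. miRPlus-E1013 read 4932, 7381 and 16697 on BaP arrays, against 5571, 9184 and 16229 on vehicle arrays and 1958, 2306 and 4236 in the reference. The lowest liver value of each was above its highest reference value. miRPlus-E1100, miRPlus-E1024 and miRPlus-E1258 had median liver signals of 8785, 6383 and 6365 on BaP arrays, against 8311, 7012 and 6259 on vehicle arrays. Their reference medians were 4514, 2165 and 2160.4. The liver signals of these 5 probes varied more between arrays than their ratios did.

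The second question was which candidates were brighter in liver than in the 10-tissue pool. The log2 ratio is that of signal plus an offset of 50 in each channel, normalized by loess within each array, which shrinks the ratios of dim probes. The pool is 1 RNA on every array and no dye was swapped, so the ratios are described and not tested.

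With loess normalization more of the lit candidates were 2-fold higher in liver than 2-fold lower. On vehicle arrays 20 of the 125 miRPlus probes detected in liver (16%) were at least 2-fold higher in liver, beside 13.6% of all 514 probes detected in liver. Only 2 of the 119 detected in the reference (1.68%) were at least 2-fold lower, beside 11.9% of all 671. The BaP arrays gave 19 and 2, and all 19 were among the 20. The median ratio of the detected miRPlus probes was 0.26 (interquartile range 0.00 to 0.62), beside 0.16 for all 514 and -0.08 for the mouse miRNA probes. It was 0.33 for the probes for other mammals and 0.41 for the viral probes, so the tilt toward liver was not particular to the miRPlus set. Of the probes for other mammals 17.6% were 2-fold higher and 5.98% lower. The shares were 8.33% and 0% for viral probes, and 10.3% and 19.5% for mouse probes.

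These counts depended on the scaling. Without normalization 10 were 2-fold higher and 16 lower, with median centring 13 and 10, and 35 and 6 on the signals that the scanner software had processed. The median ratio of all 514 probes moved from 0.16 under loess to -0.45 without normalization and -0.30 with median centring. The median of the detected miRPlus probes turned its sign, to -0.30 without normalization and -0.16 with median centring. Under all 7 settings 9 probes were at least 2-fold higher in liver, namely miRPlus-A1056, miRPlus-E1013, miRPlus-E1024, miRPlus-E1114, miRPlus-E1258, miRPlus-F1003, miRPlus-F1039, miRPlus-F1104 and miRPlus-F1164. miRPlus-F1029 was the 1 probe at least 2-fold lower in all of them. The mean ratios of all 20 were above 0 in each of the 7.

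On vehicle arrays, with loess and the offset of 50, the highest mean ratio was that of miRPlus-A1056, a dim probe. It read 32.6, 274 and 776 in liver on BaP arrays, against 195, 534 and 631 on vehicle arrays and 58.2, 72.2 and 86.5 in the reference. Its log2 ratios were 0.08, 2.74 and 3.62 on BaP arrays and 2.22, 3.02 and 3.46 on vehicle arrays (lowest, median and highest). The lowest of all was BaP 2, with a ratio of 0.08, while on the other 11 arrays the ratio was 2.22 or more.

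miRPlus-F1164 read 485, 1019.7 and 2229 in liver on BaP arrays, against 713, 1798 and 1960.2 on vehicle arrays and 269, 371 and 413 in the reference. Its log2 ratios were 1.25, 2.51 and 3.11 on BaP arrays and 2.26, 2.83 and 3.05 on vehicle arrays. Again BaP 2 was the lowest, and every array had more signal in liver.

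The bright probes had tighter ratios. miRPlus-F1003 had 2.52 ± 0.25 on BaP arrays and 2.57 ± 0.17 on vehicle arrays (SD, n = 6 each). miRPlus-E1013 had 2.07 ± 0.34 on BaP arrays and 2.19 ± 0.15 on vehicle arrays. Their vehicle means correspond to 5.95-fold and 4.55-fold more signal in liver. miRPlus-E1024 had 2.07 ± 0.25 on BaP arrays and 1.98 ± 0.17 on vehicle arrays, and miRPlus-E1258 1.85 ± 0.17 on BaP arrays and 1.89 ± 0.19 on vehicle arrays. Both kept a ratio of at least 1.67 on every array.

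Probes lit in liver and dark in the reference allow only a bound. miRPlus-F1039 read 28.2, 79.6 and 219 in liver on BaP arrays, against 69.6, 153 and 178 on vehicle arrays and 11.6, 20.8 and 45.4 in the reference, where it was not above background on any array. On vehicle arrays, with loess and the offset of 50, it was at least 3.98-fold higher in liver than in the reference. The bound sets the reference at the dimmest probe above background on each array, or at the probe's own signal where that is higher. It covers the dark channel and not the scaling: over the 7 settings the log2 ratio of miRPlus-F1039 ran from 1.48 to 4.40. By the same bound and scaling miRPlus-F1104 was at least 3.51-fold higher, miRPlus-F1223 at least 2.39-fold and miRPlus-F1028 at least 2.002-fold. Their measured log2 ratios on vehicle arrays were 2.12 for miRPlus-F1039, 1.85 for miRPlus-F1104, 1.33 for miRPlus-F1223 and 1.06 for miRPlus-F1028. The last 3 of these names were chosen after their values were seen. So were the others of the 20, except the 5 highest, those among the 10 brightest and miRPlus-F1001, named for its p-value.

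The rest of the 20 lay between 1.09 and 2.01 on vehicle arrays. miRPlus-E1114 had 1.87 ± 0.37 on BaP arrays and 2.01 ± 0.21 on vehicle arrays, miRPlus-F1222 1.79 ± 0.27 on BaP arrays and 1.92 ± 0.19 on vehicle arrays and miRPlus-F1042 1.63 ± 0.31 on BaP arrays and 1.76 ± 0.20 on vehicle arrays. Below them were miRPlus-F1001, miRPlus-E1146, miRPlus-D1036, miRPlus-F1147, miRPlus-E1253, miRPlus-F1059 and miRPlus-E1100. Series F gave 11 of the 20, E 7, and A and D 1 each, where 52 of the 125 probes detected in liver were of series F and 60 of series E.

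One candidate was much brighter in the pool. miRPlus-F1029 read 71.8, 137 and 359.9 in liver on BaP arrays, against 86.9, 203 and 266 on vehicle arrays and 2140.2, 2685 and 3787 in the reference. Its log2 ratios were -3.13, -2.97 and -2.43 on BaP arrays and -2.94, -2.86 and -2.57 on vehicle arrays. Every array showed less liver signal, 7.09-fold less on the mean of the vehicle arrays. The probe was above background in both channels on all 12 arrays.

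miRPlus-E1246 was bright in both and also lower in liver. It read 3184, 5081 and 7058 on BaP arrays, against 3612, 5460.2 and 7722 on vehicle arrays and 11274, 14131 and 16057 in the reference, and the ranges of liver and reference did not overlap. Its log2 ratios were -1.23 ± 0.27 on BaP arrays and -1.35 ± 0.18 on vehicle arrays, and its vehicle mean corresponds to 2.54-fold less signal in liver. With an offset of 10 its vehicle mean was -0.97, which no longer reached 2-fold.

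The next 3 lowest ratios were under 2-fold with loess and the offset of 50. The offset shrinks those of miRPlus-F1193 and miRPlus-E1205, which were dim in liver. miRPlus-E1030 was brighter, with median net liver signals of 612 on BaP arrays and 823 on vehicle arrays, against 1942 in the reference. miRPlus-F1193 had -0.68 ± 0.11 on BaP arrays and -0.72 ± 0.08 on vehicle arrays, and miRPlus-E1030 -0.61 ± 0.28 on BaP arrays and -0.56 ± 0.25 on vehicle arrays. miRPlus-E1205 stayed under the liver threshold on all arrays and read 66.0, 83.3 and 108 in the reference, so with this scaling it was at least 1.59-fold lower in liver, which is also its measured ratio. It had -0.57 ± 0.07 on BaP arrays and -0.67 ± 0.14 on vehicle arrays. Over the 7 settings the lowest vehicle means of these 3 were -1.64 for miRPlus-F1193, -1.71 for miRPlus-E1205 and -1.31 for miRPlus-E1030.

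The third question was whether benzo[a]pyrene changed any candidate. The ratios of all 514 probes detected in liver were fitted together with limma, and p-values were adjusted over all 514 by the Benjamini-Hochberg method. The number of arrays limits the precision.

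No miRPlus probe passed this test. Of the 125 tested, 0 had an adjusted p under 0.05, and neither did any of the 514 (0%), with a smallest adjusted p of 0.996. At an unadjusted p under 0.05 there were 0 miRPlus probes and 3 of all 514 (0.584%). A two-sided exact permutation test over 924 regroupings, which can reach 0.00216, gave 0 miRPlus probes and 4 of 514 (0.778%) with an unadjusted p under 0.05. No miRPlus probe had BaP and vehicle arrays that did not overlap, nor did any of the 514 (0%). The remaining members were too dim for the fit. With no filter on brightness all 429 were fitted among 1735, and again 0 passed, with 3 of the 429 and 25 of the 1735 at an unadjusted limma p under 0.05.

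The sizes of the differences were small for most. The 125 BaP minus vehicle differences ran from -0.47 to 0.15 in log2 ratio with a median of -0.03, beside a median of -0.01 over all 514. Of the 125, 49 were positive (39.2%, beside 46.9% of all 514). That share ran from 21.6% without normalization to 66.4% with median centring, so the balance of directions followed the scaling. The 95% interval lay within 2-fold either way for 118 of the 125 and within 1.5-fold for 111, and the median half-width was 0.18. The offset that shrinks the ratios of dim probes also shrinks their differences and intervals. Only 44 miRPlus probes had a median net liver signal over 100. For dim probes the intervals therefore describe the offset ratios and do not bound the fold change of the RNA. A miss of the threshold does not show that the groups are equal.

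The BaP minus vehicle difference was 0.08 (95% interval -0.11 to 0.26) for miRPlus-E1218, whose liver spots were saturated on 6 arrays, so a difference there can be understated. The next 4 brightest had 0 saturated liver spots. The difference was 0.07 (95% interval -0.14 to 0.28) for miRPlus-E1078 and -0.07 (95% interval -0.24 to 0.09) for miRPlus-E1103. For miRPlus-E1252 it was 0.01 (95% interval -0.21 to 0.23), and for miRPlus-E1253 -0.05 (95% interval -0.22 to 0.12). The intervals of these 4 lie within 1.5-fold in either direction.

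The other 5 of the 10 brightest also had intervals around 0. miRPlus-F1003 differed by -0.05 (95% interval -0.31 to 0.20) and miRPlus-E1013 by -0.11 (95% interval -0.42 to 0.19). miRPlus-E1100 differed by -0.0013 (95% interval -0.24 to 0.24), miRPlus-E1024 by 0.09 (95% interval -0.15 to 0.34) and miRPlus-E1258 by -0.04 (95% interval -0.25 to 0.18).

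The smallest unadjusted p among the candidates was that of miRPlus-E1238. This probe was dim, with median net liver signals of 25.1 on BaP arrays and 25.5 on vehicle arrays. Its log2 ratios were -0.21, -0.11 and -0.04 on BaP arrays, against -0.33, -0.21 and -0.11 on vehicle arrays. The groups overlapped, with 5 of 6 BaP arrays above the vehicle mean. The difference was 0.09 (95% interval -0.02 to 0.20), with an unadjusted limma p of 0.114, an adjusted p of 0.996 and an exact permutation p of 0.0736. Within the 4 scan days it was 0.11, 0.10, 0.07 and 0.07.

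The rest of the 10 smallest p-values were above 0.14. miRPlus-F1170 differed by 0.13 (95% interval -0.05 to 0.31) and miRPlus-F1024 by 0.14 (95% interval -0.07 to 0.34). For miRPlus-F1024 all 6 BaP arrays were above the vehicle mean, but the difference was 0.06 without vehicle 2 and -0.12 within scan day 4. miRPlus-E1185 differed by 0.06 (95% interval -0.04 to 0.16), also with 6 of 6 BaP arrays above the vehicle mean, but by 0.03 without BaP 2 and by -0.011 within scan day 2. It was dim, and above background in liver on 10 of 12 arrays.

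The other 6 had negative differences. miRPlus-F1001 differed by -0.17 (95% interval -0.44 to 0.09), miRPlus-C1002 by -0.09 (95% interval -0.25 to 0.06) and miRPlus-E1089 by -0.09 (95% interval -0.23 to 0.06). miRPlus-F1181 differed by -0.08 (95% interval -0.22 to 0.06). miRPlus-E1089 and miRPlus-F1181 were dim, and above background in liver on 10 and 9 of 12 arrays. miRPlus-C1002 had median net liver signals of 34.3 on BaP arrays and 42.7 on vehicle arrays. miRPlus-F1130 differed by -0.32 (95% interval -0.85 to 0.21) and miRPlus-A1073 by -0.47 (95% interval -1.28 to 0.35), and on both no BaP array was above the vehicle mean. These last 2 means rest on vehicle 5: without it the differences were -0.06 and -0.06. On miRPlus-E1089 too no BaP array was above the vehicle mean, and leaving out 1 array gave differences of -0.12 to -0.055.

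The widest intervals belonged to the probes on which 1 array stood apart. On 7 probes the interval reached beyond 2-fold: miRPlus-A1056, miRPlus-F1194, miRPlus-A1073, miRPlus-F1153, miRPlus-F1039, miRPlus-F1062 and miRPlus-F1154. The difference of miRPlus-A1056 was -0.47 (95% interval -1.53 to 0.59), and it was 0.01 without BaP 2. For miRPlus-F1164 it was -0.28 (95% interval -0.86 to 0.29), and -0.04 without BaP 2. For miRPlus-F1039 it was -0.40 (95% interval -1.16 to 0.37), and -0.09 without BaP 2. Each of these 3 negative means shrank by over 1.5 times when that array was left out, and that of miRPlus-A1056 turned its sign.

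On vehicle 5, 9 miRPlus probes were raised by at least 1 in log2 ratio over their median across arrays, among 30 of all 514 probes. miRPlus-F1194 read 802 in liver there, against 18.8 to 121 on the other 11 arrays. miRPlus-A1073 read 459, against 25.4 to 66.3. miRPlus-F1153 read 315, against -5.09 to 25.7. The liver channel was high on this array for all 3. Their reference signals there were 94.2, 70.8 and 43.2, beside medians of 90.2, 71.7 and 31.8. The other 6 were miRPlus-F1062, miRPlus-F1154, miRPlus-F1190, miRPlus-F1088, miRPlus-F1215 and miRPlus-F1130.

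On BaP 2, 5 miRPlus probes were lowered by at least 1, among 8 of all 514 probes, and all 5 were among the 20 that were higher in liver. miRPlus-A1056 read 32.6 in liver there, against 195 to 776 on the other 11 arrays. miRPlus-F1164 read 485, against 713 to 2229. Both were lower than on every other array. miRPlus-D1036 read 60.1 in liver, within the 39.9 to 149 of the others, and its reference signal of 125 stood beside a median of 40.0. miRPlus-F1039 and miRPlus-F1223 completed the 5. BaP 2 was also the array with the most miRPlus probes above background, and the part of that in these values was not tested. The arrays named here, like the probes shown for them, were chosen after their values were seen.

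Leaving out vehicle 5 and BaP 2 together left 0 probes past the test, and the median difference of the miRPlus probes was -0.02.

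Scan day called probes where treatment called 0. Treatment and scan day were fitted together. In that fit limma's F-test for scan day called 28 of the 125 miRPlus probes (22.4%) at an adjusted p under 0.05. Of all 514 probes it called 131 (25.5%). The share of miRPlus probes was near the background, and this test was added after the data were seen. The smallest adjusted p were those of miRPlus-F1212 (0.00607) and miRPlus-E1024 (0.00729). miRPlus-E1024 had a mean log2 ratio of 2.42 on the first scan day, against 1.88 to 1.99 on the other 3 days. With scan day as a block, 0 probes passed the treatment test, and 2 miRPlus probes had an unadjusted p under 0.05, beside 14 of all 514 (2.72%). Within the days the median difference of the miRPlus probes was 0.0096, -0.0025, -0.039 and 0.043.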

How the data were processed

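Each of 12 two-colour Exiqon arrays held liver RNA of 1 sample in red and the common pool in green. The authors deposited the mean intensity of each spot and the median intensity of its local background, both linear and not normalized. The submitters' processing notes name Agilent Feature Extraction 9.5.3.1. Its flag for spots well above background was set everywhere, so the 28 negative control spots (7 probes) set the detection threshold. Arrays are numbered within a group in accession order, which pairs none of them.

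In limma 3.58.1 (R 4.3.3), normexp with an offset of 50 corrected the background and loess normalized the ratios within each array. Control spots and outlier-flagged spots had weight 0, flagged ones (3.02% of miRPlus spots) were left out of probe means, except where all 4 were flagged, and the 4 spots of a probe were averaged. The 514 named probes detected in liver were tested with lmFit and eBayes at a Benjamini-Hochberg adjusted p of 0.05. The fit was first tested on simulated data. No array repeated another: the closest pair, BaP 1 and vehicle 1, had differences in log2 ratio with an SD of 0.124, beside 0.253 for the median pair.

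The probes named were the 10 brightest in liver by mean signal, the 5 highest and 5 lowest ratios on vehicle arrays, the 10 smallest unadjusted p, any that passed the test, and up to 5 with 1 array at least 2-fold above the others. Others were chosen after their values were seen. The members, lists and tests were chosen with earlier results of these data known. Alternatives covered threshold, spots, background correction, normalization, filter, scan day and left-out arrays. The authors' processed ratios hold no value for these probes in the table used here.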

Additional observations from a re-analysis of the deposited data

Results flagged for a closer look

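A sample was looked at again where, among the 6 arrays of a group, it lay farther from its nearest neighbour than Dixon's 95% critical share of the range allows. Of 70 groups of values tested, 11 met this. By chance about 1 in 20, or 3.5, would meet it among values not picked from these data. Most groups here are of probes that were picked from them, some for extreme values, so the counts cannot be compared. The groups are not independent, since arrays and probes recur.

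On vehicle 5 the log2 ratio was 1.75 for miRPlus-F1130, against -0.05 to 0.35 on the other vehicle arrays. It was 2.70 for miRPlus-A1073, against 0.05 to 0.46, and 0.13 for miRPlus-F1011, against -0.09 to -0.05. On vehicle 5 miRPlus-F1011 was not above background in either channel. On BaP 2 the log2 ratio was 0.082 for miRPlus-A1056, against 2.47 to 3.62 on the other BaP arrays. It was 1.25 for miRPlus-F1164, against 2.45 to 3.11, and 0.22 for miRPlus-E1185, against 0.02 to 0.09. Vehicle 5 and BaP 2 thus account for 6 of the 11.

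On the first scan day, miRPlus-E1024 had a log2 ratio of 2.53 on BaP 1, against 1.85 to 2.10 on the other BaP arrays. On vehicle 1 it had 2.31, against 1.88 to 1.998 on the other vehicle arrays. miRPlus-E1100 had 1.48 on vehicle 1, against 0.98 to 1.06. Vehicle 1 also had 171 miRPlus probes above background in liver, against 107 to 128 on the other vehicle arrays. miRPlus-C1002 had 0.86 on BaP 4, against 0.43 to 0.57 on the other BaP arrays.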

How the results depend on the processing

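The counts of 0 probes past the test held under every alternative run, for the miRPlus probes and for all probes. No paired analysis was possible because the labels carry no replicate numbers shared between the groups. The authors' processed ratios were not run, since they hold no value for these probes. Brightness over background limits what can be seen, since 293 of 429 probes were detected in neither channel. The median of the 4 spots and leaving out 2 arrays together were chosen after the data were seen.

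Detected miRPlus probes numbered 79 in liver and 78 in the reference when all 12 arrays were required. Other detection thresholds gave 94 to 138 in liver and 95 to 126 in the reference, and leaving out 1 array gave 114 to 125 and 115 to 119. Probes at least 2-fold higher and lower in vehicle liver numbered 10 and 16 without normalization, 13 and 10 with median centring, and 35 and 6 with processed signals. With offset 10 they numbered 27 and 3, and leaving out 1 array gave 20 to 21 and 2. The median BaP minus vehicle difference was 0.040 with median centring and 0.043 within scan day 4, against -0.025 as reported and -0.058 to 0.015 in the other alternatives, and leaving out 1 array gave -0.045 to -0.0036.

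Of 28 named probes tested, 11 kept the sign of their difference in every fit across days, and 0 passed the test in any. Of these 11, only miRPlus-E1238 and miRPlus-F1181 also kept it within every scan day. The differences whose sign turned in the fits across days were as follows, and the cause was not tested. Without normalization, miRPlus-E1078 gave -0.015, miRPlus-E1252 -0.045, miRPlus-E1185 -0.0012 and miRPlus-E1072 -0.054. With median centring, miRPlus-E1100 gave 0.063, miRPlus-E1258 0.064, miRPlus-F1029 0.0044 and miRPlus-E1030 0.016. With processed signals, miRPlus-E1103 gave 0.0069 and miRPlus-E1100 0.013. With the liver channel alone, miRPlus-E1252 gave -0.020, miRPlus-E1100 0.053, miRPlus-E1258 0.13, miRPlus-E1246 -0.14, miRPlus-F1193 -0.037 and miRPlus-E1089 0.013. With offset 10, miRPlus-E1218 gave -0.10, miRPlus-E1078 -0.10, miRPlus-E1252 -0.13, miRPlus-E1024 -0.016 and miRPlus-E1246 -0.017. With flagged spots kept, miRPlus-E1252 gave -0.075 and miRPlus-E1072 -0.0081. With scan day as a block, miRPlus-E1100 gave 0.00055 and miRPlus-F1029 0.0020. Without vehicle 5 and BaP 2 together, miRPlus-E1252 gave -0.065. Leaving out 1 array gave -0.055 to 0.050 for miRPlus-E1252, -0.083 to 0.0012 for miRPlus-E1253, -0.12 to 0.00057 for miRPlus-F1003 and -0.060 to 0.075 for miRPlus-E1100. It gave -0.087 to 0.019 for miRPlus-E1258, -0.70 to 0.013 for miRPlus-A1056, -0.13 to 0.023 for miRPlus-E1030 and -0.0078 to 0.057 for miRPlus-E1072.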

Other observations

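Some probes outside the miRPlus set moved on the same arrays, and they are given as values only. On vehicle 5 the log2 ratio of mmu-miR-345-5p/rno-miR-345-5p stood 2.58 above its median over the 12 arrays, that of hsa-miR-885-5p 2.53 and that of hcmv-miR-UL148D, a probe for a viral miRNA, 2.51. On BaP 2 the ratio of hsa-miR-25* stood at -4.22 from its median and that of hsa-miR-184/mmu-miR-184/rno-miR-184 at -1.88. These probes were chosen after their values were seen.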
